A study of Mus musculus with 6 samples.

Results

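Clock output genes carry the time kept by the circadian clock into the physiology of the liver, and 9 of them were followed in livers of aged mice with and without Chromogranin A (CgA), the prohormone encoded by Chga. They are the PAR bZIP transcription factors Dbp, Tef and Hlf, their repressor Nfil3, the clock repressors Ciart, Bhlhe40 and Bhlhe41, the nuclear receptor Rora and the ubiquitin-specific peptidase Usp2. The members were taken by symbol from a table of 32212 rows, and all 9 were found and passed the filter on low counts. The samples were livers of male C57BL/6 mice of 2 yr, 3 of WT genotype and 3 CgA-KO mice, which lack CgA, all on a normal chow diet and a 12 hr dark/light cycle. Poly(A) RNA of each liver was sequenced as 1 library, with total counts from 10558616 to 31087453. The comparison asks whether aged livers differ in these genes when CgA is missing. The labels and methods used here give neither the hour at which the livers were taken nor the feeding state, nor how the knockout allele was built.

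The clock of each cell is a loop in which CLOCK (or NPAS2) and BMAL1, the product of Arntl, activate genes through E-boxes, and the PER and CRY proteins made from such genes then inhibit them. A side loop acts through ROR elements, where ROR receptors activate and REV-ERB receptors (Nr1d1, Nr1d2) repress Arntl and its partners. Outputs branch from both: DBP, TEF and HLF activate genes that carry a D-box, and NFIL3 (also E4BP4) represses through that element. In mouse liver, Dbp is one of the genes with the strongest daily rhythm, high late in the light phase, while Nfil3 and Arntl peak in the opposite part of the day.

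Of the 9 output genes, 6 were lower and 1 was higher in CgA-KO livers at an adjusted p under 0.05 (edgeR's quasi-likelihood test, adjusted over all 13867 genes tested). Among all genes tested 12.4% were called, 3.84% lower and 8.60% higher. The lower ones were Dbp, Tef, Hlf, Bhlhe40, Bhlhe41 and Usp2, the higher one was Nfil3, and Ciart and Rora were not called. In 8 of the 9 genes the WT and CgA-KO livers did not overlap, 7 of them lower and 1 higher, against 33.6% of all genes tested (14.6% lower and 19.0% higher). The median log2 fold change (CgA-KO minus WT) of the 9 genes was -1.70, beside -0.01 for all genes tested. DESeq2 and limma-voom each called 8 of the 9, Ciart being the addition, where they called 17.2% and 13.1% of all genes. With 1 library dropped, the count of 7 went down to 3 (no WT replicate 2), to 4 (no WT replicate 3) and to 3 (no CgA-KO replicate 1). Calls over all genes, 1726 with all libraries, were 841, 394 and 744 in these fits. The labels do not say whether the replicates shared a litter, cage or day, and the p-values measure the spread between these 6 samples only. In bulk liver, fewer cells of a type and less RNA per cell cannot be told apart.

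**Figure D1:**
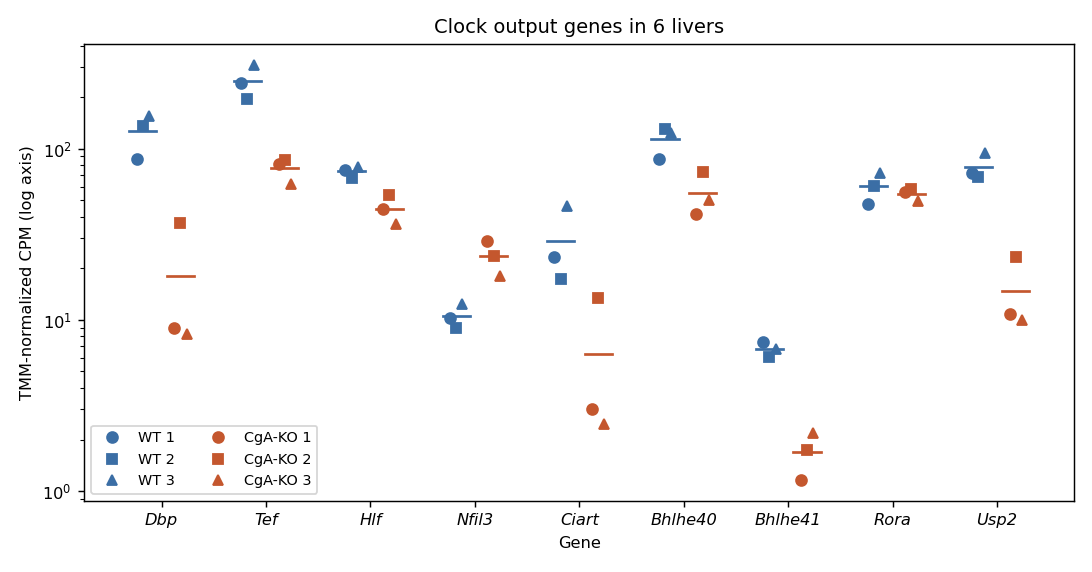
TMM-normalized CPM (counts scaled to library size, log axis) of the 9 output genes, with 1 point per liver and a line at each group mean (n = 3 WT in blue, n = 3 CgA-KO in orange). The groups overlap in Rora, and CgA-KO replicate 2 is the CgA-KO liver nearest to WT in Dbp, Tef, Hlf, Ciart, Bhlhe40 and Usp2.

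Dbp, a PAR bZIP activator named for binding the D-box of the albumin promoter, had the largest fold change of the 9. WT replicates 1, 2 and 3 had 87.4, 135 and 155 CPM of Dbp (library sizes scaled with edgeR's TMM factors), and CgA-KO replicates 1, 2 and 3 had 8.96, 36.7 and 8.29 CPM. All 3 CgA-KO livers lay below all WT livers, and CgA-KO replicate 2 exceeded the mean of the other two by 2.09 on the log2 scale. The means were 126 ± 34.8 and 18.0 ± 16.2 CPM (SD, n = 3 each), -2.80 on the log2 scale (SE 0.57; edgeR, adjusted p = 0.0165), or 6.97-fold lower in CgA-KO. Without CgA-KO replicate 2 the log2 fold change was -3.83. Dbp lost its call without WT replicate 2 (edgeR adjusted p = 0.101), WT replicate 3 (0.112) or CgA-KO replicate 1 (0.0651), and with no filter on low counts (0.102). Its direction held in all 14 alternatives. Dbp lies on chromosome 7 of GRCm38 from 45705088 to 45710203 and shares 539 of its 2993 exonic bases with Sphk2 on the other strand. Sphk2 was higher in CgA-KO livers (log2 fold change 0.70, edgeR adjusted p = 0.0321), opposite to Dbp.

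Tef, the second PAR bZIP activator, was at 243, 194 and 309 CPM in WT replicates 1, 2 and 3 and at 81.7, 86.1 and 62.3 CPM in CgA-KO replicates 1, 2 and 3. The CgA-KO livers lay close together and well under the WT range. The log2 fold change was -1.70 (SE 0.25; edgeR, adjusted p = 0.00581), 3.24-fold lower, and it was called in all 14 alternatives, between -1.85 and -1.45. Hlf, the third, had 75.5, 67.3 and 78.2 CPM across WT replicates 1, 2 and 3, while CgA-KO replicates 1, 2 and 3 had 44.2, 53.5 and 36.4 CPM. The groups did not overlap, but the distance was small: 1.65-fold lower, -0.72 on the log2 scale (SE 0.20; edgeR, adjusted p = 0.0447). The call of Hlf was lost in 11 of 14 alternatives, among them scaling by library size alone (-0.46, edgeR adjusted p = 0.235), and all fits without 1 library except that without CgA-KO replicate 2, while its direction held in all.

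Nfil3 was the one output gene that was higher. WT replicates 1, 2 and 3 stood at 10.2, 9.02 and 12.4 CPM, and CgA-KO replicates 1, 2 and 3 at 28.8, 23.8 and 18.2 CPM. Every CgA-KO liver exceeded every WT liver, and CgA-KO replicate 2 lay between the other CgA-KO livers. The means of 10.5 ± 1.72 and 23.6 ± 5.34 CPM gave 1.16 on the log2 scale (SE 0.23; edgeR, adjusted p = 0.0153), or 2.23-fold. The call was lost with scaling to 10 hepatocyte genes (edgeR adjusted p = 0.0531), without WT replicate 2 (0.0501) and without CgA-KO replicate 1 (0.0582). Nfil3 is also a factor of natural killer (NK) and other immune cells, and markers of T cells and Kupffer cells rose too. The summed level of 7 T and NK cell markers ran from 2.85 to 8.69 CPM in WT and from 22.7 to 105 CPM in CgA-KO livers, with 5 of 6 tested markers called higher by edgeR and DESeq2 and 0 by limma-voom (5 at an unadjusted p under 0.05 in edgeR). Klrb1c, a receptor of NK cells, overlapped between the genotypes and was not called (edgeR adjusted p = 0.211). Ncr1, the defining receptor of NK cells, had at most 11 counts in any library. The summed level of 8 Kupffer cell markers ran from 105 to 244 CPM in WT and from 1137 to 1545 CPM in CgA-KO livers. Of these 8 edgeR called 7 higher, where it called 8.60% of all genes tested higher. CgA-KO replicate 2 had the highest sum of T and NK cell markers, while the highest Nfil3 was in CgA-KO replicate 1. The part of these cells in the level of Nfil3 was not tested.

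DBP and NFIL3 compete for the same element, so their RNAs were also set against each other within each library, which needs no scaling. The log2 ratio of Dbp to Nfil3 counts was 3.10, 3.91 and 3.64 in WT replicates 1, 2 and 3 and -1.69, 0.63 and -1.13 in CgA-KO replicates 1, 2 and 3. Dbp thus had more counts than Nfil3 in every WT liver and in CgA-KO replicate 2, and fewer in the other two. The means of 3.55 ± 0.41 and -0.73 ± 1.21 differed by -4.28 on the log2 scale, or 19.4-fold (exact two-sided permutation test, p = 0.1, the smallest that 3 against 3 livers allow). Leaving out 1 library at a time gave differences from -4.96 to -3.80. The ratio of Tef to Nfil3 fell by 2.83 and that of Hlf to Nfil3 by 1.88 on the log2 scale, with no overlap between the genotypes in either.

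The activators also differed from each other. On the scale of CPM per kb of exon, levels of different genes can be compared roughly. On it, Dbp, Tef and Hlf together reached 71.4, 79.9 and 103 in WT replicates 1, 2 and 3 and 20.0, 31.2 and 16.1 in CgA-KO replicates 1, 2 and 3. Dbp made up 40.9% to 56.5% of that sum in WT livers, while CgA-KO replicates 1, 2 and 3 had 15.0%, 39.3% and 17.2%. Hlf made up 11.4% to 15.8% in WT and 25.6% to 33.7% in CgA-KO livers, which did not overlap. The log2 ratio of Dbp to Hlf counts was 0.74 ± 0.45 in WT and -1.66 ± 0.97 in CgA-KO livers, again without overlap, while for Dbp to Tef the ranges overlapped. Nfil3 was the lowest of these 4 bZIP genes in each WT liver. It was the highest of the 4 on this scale in CgA-KO replicates 1 and 3, and second to Dbp in CgA-KO replicate 2. That order rests on the joined exon lengths, 7867 bases for Tef and 2026 for Nfil3. By counts, Tef exceeded Nfil3 in CgA-KO replicates 1, 2 and 3, with 1760 against 621, 2716 against 749 and 1391 against 405.

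**Figure D2:**
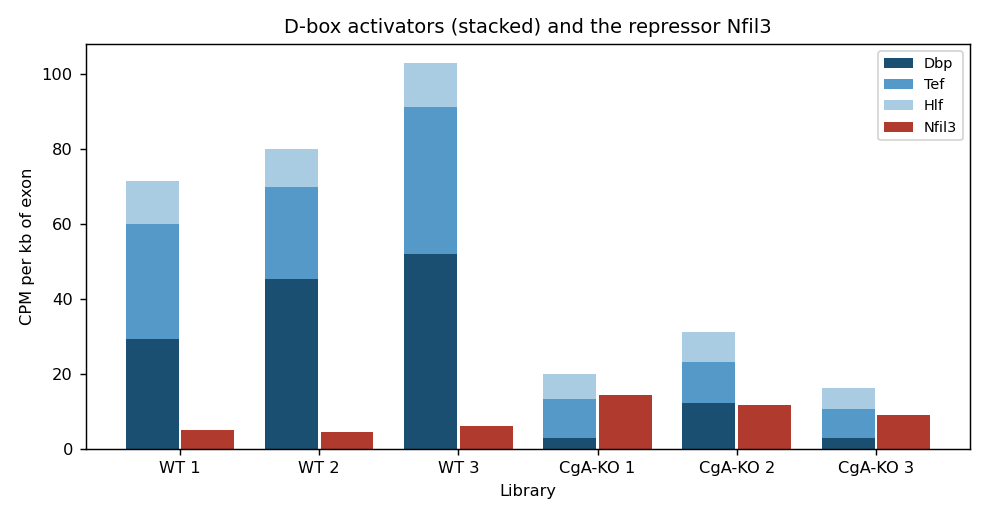
Levels of the D-box factors in each of the 6 livers in CPM per kb of exon, with Dbp, Tef and Hlf stacked in blue and Nfil3 beside them in red. The stack is 14.2 to 18.0 times as high as Nfil3 in the WT livers and 1.41 to 2.66 times as high in the CgA-KO livers.

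Ciart, which encodes the repressor CHRONO that binds BMAL1, spread widely within both genotypes. It was at 23.4, 17.3 and 46.0 CPM in WT replicates 1, 2 and 3 and at 3.02, 13.4 and 2.47 CPM in CgA-KO replicates 1, 2 and 3. CgA-KO replicate 2 came close to the lowest WT liver without reaching it. The log2 fold change was -2.19 with a 95% interval from -3.63 to -0.74, and edgeR did not call it (adjusted p = 0.0560). Without CgA-KO replicate 2 it was -3.37 and was called (edgeR adjusted p = 0.0192), as it was by DESeq2 and limma-voom. Over the alternatives, the adjusted p of Ciart ran from 0.00178 to 0.267.

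Bhlhe40 and Bhlhe41 encode DEC1 and DEC2, which compete with CLOCK and BMAL1 at E-boxes. Bhlhe40 had 86.7, 130.4 and 123 CPM in WT replicates 1, 2 and 3 and 41.5, 73.1 and 49.9 CPM in CgA-KO replicates 1, 2 and 3. The groups were apart, by 2.07-fold (log2 fold change -1.05, SE 0.26, edgeR, adjusted p = 0.0338). The call of Bhlhe40 was lost with scaling by library size alone (log2 fold change -0.75, edgeR adjusted p = 0.0780) and in 4 of the 6 fits on 5 libraries, those without WT replicate 2 or 3 or CgA-KO replicate 1 or 3. Bhlhe41 was far scarcer and changed more. It was at 7.43, 6.08 and 6.78 CPM in WT replicates 1, 2 and 3 and at 1.16, 1.74 and 2.20 CPM in CgA-KO replicates 1, 2 and 3, from 83 to 160 counts against 25 to 55. The means were 6.76 ± 0.68 and 1.70 ± 0.52 CPM, and the gap was 3.96-fold (log2 fold change -1.98, SE 0.32, edgeR, adjusted p = 0.00778). Bhlhe41 was called in all 14 alternatives. It shares 1280 of its 6720 exonic bases with Gm43909 on the other strand, which has no row in the deposited counts. Bhlhe40 and Bhlhe41 are also used by immune cells, of which most markers given for Nfil3 were higher in CgA-KO livers. The part of these cells in the level of the pair was not tested.

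Usp2, a deubiquitinase whose liver RNA follows the clock and whose substrates include clock proteins, was at 72.2, 68.5 and 93.7 CPM in WT replicates 1, 2 and 3. It was at 10.8, 23.4 and 9.95 CPM in CgA-KO replicates 1, 2 and 3. No CgA-KO liver came near the WT range, and CgA-KO replicate 2 was again the highest of its group. Usp2 fell 5.29-fold, with -2.40 on the log2 scale (SE 0.34, edgeR, adjusted p = 0.00550). It was called in all 14 alternatives, between -2.88 and -2.14. Of its 4818 exonic bases, 200 are shared with Gm49380 and 200 with Gm39325. Both lie on the other strand and have no row in the deposited counts.

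Rora, which activates Arntl through ROR elements, was at 47.7, 60.8 and 72.5 CPM in WT replicates 1, 2 and 3 and at 55.8, 58.5 and 49.7 CPM in CgA-KO replicates 1, 2 and 3. The CgA-KO values all lay inside the WT range. The log2 fold change was -0.14 with a 95% interval from -0.60 to 0.31 (edgeR adjusted p = 0.681), so a change of 2-fold in either direction lay outside the interval. Its sign turned with scaling by library size alone (0.14), with scaling to hepatocyte genes (0.026) and without WT replicate 3 (0.0040).

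**Figure D3:**
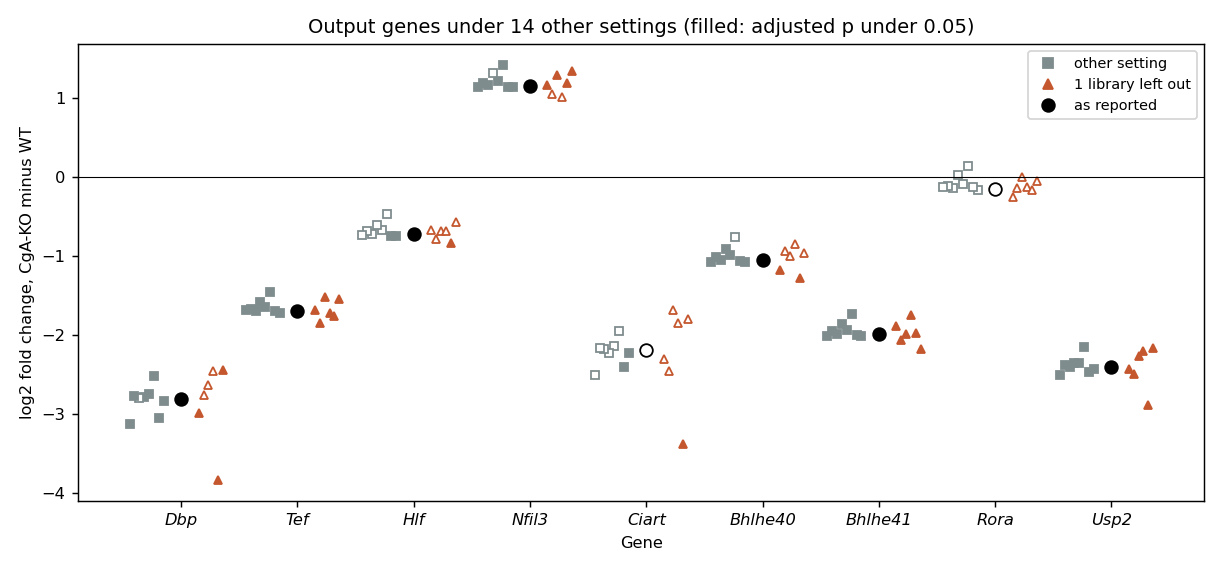
Log2 fold change of each output gene as reported (black circles, n = 3 against 3) and under 14 other settings, 8 changes of tool, scaling, filter or block (grey squares) and 6 fits that each left out a library (orange triangles). Filled symbols have an adjusted p under 0.05, as all those of Tef, Bhlhe41 and Usp2 do, and only Rora has values on both sides of 0.

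By level, the order in WT livers was Dbp at 42.1 ± 11.6 CPM per kb of exon, Tef (31.6), Bhlhe40 (24.1), Usp2 (16.2), Ciart (12.8), Hlf (11.0), Nfil3 (5.21), Rora (4.62) and Bhlhe41 (1.01). Neighbours in this order overlapped between livers except Hlf over Nfil3 and Rora over Bhlhe41. In CgA-KO livers the order began with Bhlhe40 at 11.7 ± 3.48 and Nfil3 at 11.6 ± 2.64 CPM per kb, and Dbp came after Tef and Hlf at 6.01 ± 5.42. There all neighbours overlapped except Ciart over Bhlhe41. Exon lengths are those of all annotated transcripts joined, so a gene read mostly from short transcripts is understated.

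The upstream bases of the members show which clock elements lie close to their RefSeq start sites. RefSeq windows of 250 bases before the start (GRCm38.p6) were at hand for 8 of the members, 9 windows in all, since Tef has a pair. The palindromic E-box CACGTG was found in 4 of them, in Ciart, Bhlhe41 and both of Tef, and in 6.02% of all 32851 windows. A ROR element, read as TAGGTCA or TGGGTCA on either strand, was found in Nfil3 alone, and in 5.38% of all windows. The D-box, read as TTATGTAA or TTACGTAA on either strand, was found in none of the 9, and in 0.931% of all windows. A match describes letters, not binding, and elements farther from the start were not searched. The stretches below carry the matches, in capitals, for the member with the most E-boxes, for the other 2 members with one, and for the only member that was called higher.
Ciart, chr3:95882259-95882378, minus strand: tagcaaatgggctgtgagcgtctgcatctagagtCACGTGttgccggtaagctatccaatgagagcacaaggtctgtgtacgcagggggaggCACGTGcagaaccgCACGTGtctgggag
Bhlhe41, chr6:145865559-145865620, minus strand: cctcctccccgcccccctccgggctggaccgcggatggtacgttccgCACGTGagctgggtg
Tef, second start, chr15:81811244-81811323, plus strand: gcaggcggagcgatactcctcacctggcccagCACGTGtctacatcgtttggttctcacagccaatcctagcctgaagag
Nfil3, chr13:52981040-52981069, minus strand: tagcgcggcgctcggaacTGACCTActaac
The 3 E-boxes of Ciart begin 116, 58 and 44 bases before its start, that of Bhlhe41 begins 153 bases before, and the element of Nfil3, on the other strand, begins 12 bases before and lies within the first exon of the GENCODE annotation. Of the members with an E-box, Tef and Bhlhe41 were called lower in CgA-KO livers and Ciart was not called, while Nfil3, with the ROR element, was called higher. Dbp, Hlf and Usp2 were called lower as well and had neither element in these windows. Bhlhe40, also called lower, had no window, and Rora, not called, had neither element.

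Pattern over the 6 livers was compared with that of Dbp by the root mean square difference of log2 CPM after centring each gene on its mean. Of 13866 other genes, Usp2 was the second nearest to Dbp (0.48) and Ciart the third (0.50). Bhlhe41 (0.97) and Tef (0.98) stood at ranks 70 and 75, Bhlhe40 at 169 and Hlf at 581. The distance keeps the genotype difference, so these ranks also reflect how near the fold change of a gene lies to that of Dbp. Outside the clock lists the 5 nearest were Gm6614, 1700030C10Rik, Fam47e, Tspyl5 and Jph1. Of these, Fam47e alone had over 200 counts in each WT library, with 34.4, 39.4 and 23.3 CPM in WT replicates 1, 2 and 3 and 2.97, 6.60 and 2.64 CPM in CgA-KO replicates 1, 2 and 3, while Gm6614 had at most 32 counts in any library. All 5 had lower values in every CgA-KO liver than in any WT liver, which their choice by nearness to Dbp in these same livers makes likely.

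CgA-KO replicate 2 was the highest of the 3 CgA-KO livers in 7 of the 9 output genes, against 37.7% of all genes tested. It exceeded the mean of the other two on the log2 scale by 2.28 in Ciart, 2.09 in Dbp and 1.17 in Usp2, but by 0.12 in Bhlhe41, 0.15 in Rora and 0.05 in Nfil3. The same liver stood apart in blood cell genes, with 310.5 CPM summed over 6 neutrophil markers where CgA-KO replicates 1 and 3 had 26.8 and 30.4 CPM and no WT liver had over 9.78 CPM. The part of those cells in the higher Dbp, Ciart and Usp2 of that liver was not tested. Without that library 8 output genes were called, while calls over all genes went from 1726 to 976.

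**Figure D4:**
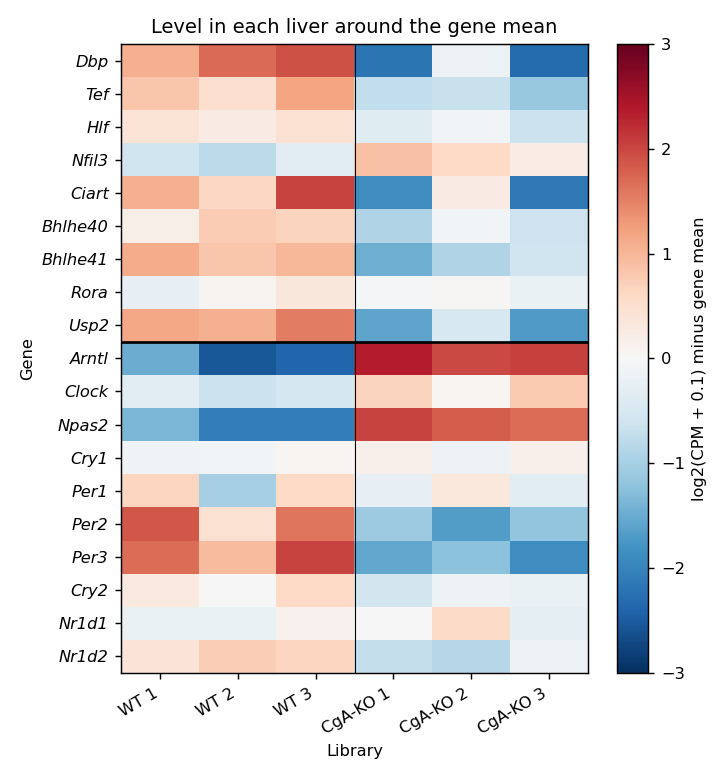
Level of each output gene (above the line) and core clock gene (below) in the 6 livers, as log2(CPM + 0.1) minus the mean of the gene over all 6 livers, red above and blue below the mean. WT livers are red and CgA-KO livers blue in most output genes, the reverse of Nfil3, Arntl and Npas2. Of the CgA-KO livers, replicate 2 is the palest in Dbp, Ciart and Usp2, and in Ciart it is slightly above the mean.

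Genes that drive the outputs were counted from lists. Of 6 core genes driven through E-boxes, 3 were called lower in CgA-KO livers, Per3 (log2 fold change -3.16), Per2 (-2.74) and Nr1d2 (-1.15), with edgeR adjusted p-values of 0.00247, 0.00484 and 0.0167. Cry2 (-0.61, adjusted p = 0.0837), Per1 (-0.31, 0.655) and Nr1d1 (0.21, 0.625) were not called, and the sign of Nr1d1 turned without CgA-KO replicate 2 (-0.043). The median of the 6 was -0.88. Of all genes tested 3.84% were called lower and 8.60% higher. Among genes with ROR elements or a peak around dawn, Arntl rose by 4.44, Npas2 by 4.32 and Clock by 1.03 on the log2 scale (edgeR adjusted p = 0.00164, 0.00296 and 0.0196), and Cry1 (0.09, adjusted p = 0.834) was not called. Arntl rested on 13 to 15 counts in WT libraries and on 351 to 474 in CgA-KO libraries, and Npas2 on 3 counts in each WT library and 65 to 102 in CgA-KO libraries. Clock lost its call without WT replicate 2 or 3 or CgA-KO replicate 1 or 3, and Nr1d2 without WT replicate 3 or CgA-KO replicate 1 or 2.

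**Figure D5:**
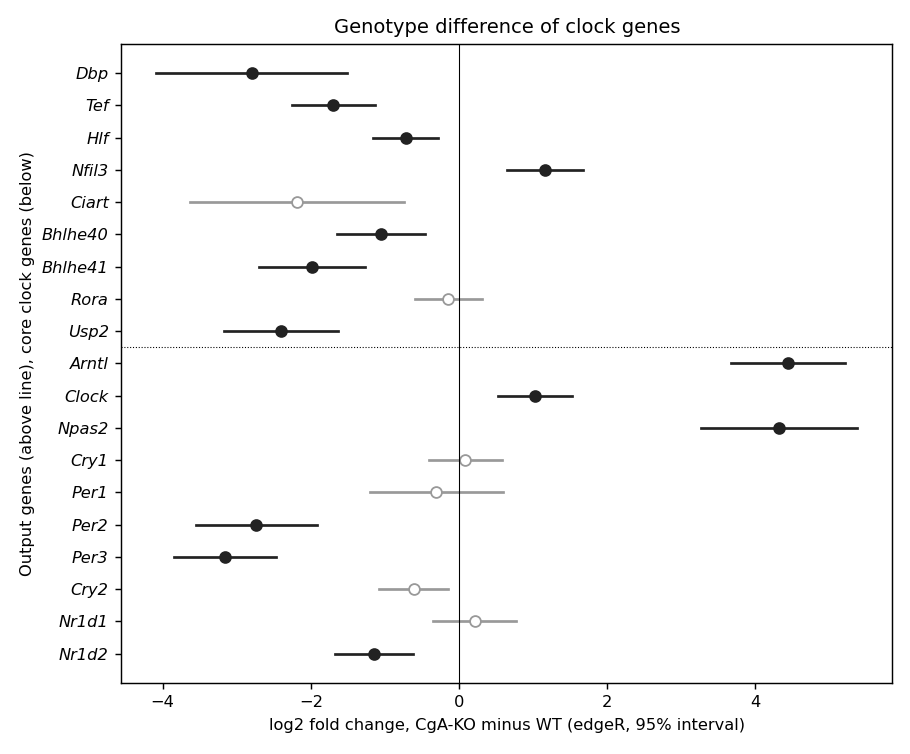
Log2 fold change (CgA-KO minus WT) with its 95% interval from edgeR for the 9 output genes (above the line) and 10 core clock genes (below), n = 3 against 3. Filled circles have an adjusted p under 0.05, and Arntl, Npas2, Clock and Nfil3 are the filled ones on the right of 0.

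Downstream, 9 detoxification genes that depend on the PAR bZIP factors in knockout mice had 2 called lower and 2 called higher. The shares of all genes tested were 3.84% called lower and 8.60% called higher. Alas1, the first enzyme of heme synthesis, and Nr1i3, the xenobiotic receptor CAR, were called lower, by 2.20-fold (edgeR adjusted p = 0.0474) and 2.33-fold (0.0496), and each lost the call in 10 of 14 alternatives. Cyp2b10 (log2 fold change 2.50, edgeR adjusted p = 0.00703) and Cyp2a4 (5.83, 0.0189) were called higher, the latter with 1372 counts in CgA-KO replicate 3 and 79 and 137 in CgA-KO replicates 1 and 2. Por, which passes electrons to cytochromes P450, averaged 494 ± 48.8 CPM over WT and 501 ± 203 CPM over CgA-KO livers (edgeR adjusted p = 0.976). The list's median was 0.17, and -0.33 without CgA-KO replicate 2. The count of 4 went down to 1 without WT replicate 1 or WT replicate 3 and to 2 without any other library. Calls over all genes were 2126 without WT replicate 1, 394 without WT replicate 3 and 744 to 1249 without any other library. The higher value of Cyp2a4 was not called without any one of the WT libraries, nor by DESeq2 or limma-voom, and was 3.31 on the log2 scale without CgA-KO replicate 3, and Cyp2b10 was not called without WT replicate 2. The Cyp2 genes belong to families of close paralogs between which reads can be split.

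Among 9 other genes with a daily rhythm in liver, 4 were called lower, against 3.84% of all genes tested. The other 5 were not called, and the median of the 9 was -0.88. Wee1, a kinase that holds back mitosis and an E-box target, fell 7.32-fold (log2 fold change -2.87, edgeR adjusted p = 0.00282). WT replicates 1, 2 and 3 had 12.6, 23.2 and 22.4 CPM of Wee1, and CgA-KO replicates 1, 2 and 3 had 2.32, 2.73 and 2.91 CPM, far apart. Coq10b (-2.17) and Upp2 (-1.78) followed. Wee1 and Coq10b were called in all 14 alternatives, and Upp2 was not without WT replicate 3 or CgA-KO replicate 1. Of 8 genes induced by glucocorticoids, hormones that themselves rise and fall by day, 4 were called higher, against 8.60% of all genes tested. Their median log2 fold change was 0.81. The largest were Mt2 (2.80), Ddit4 (2.12) and Mt1 (2.05), with CgA-KO replicate 2 highest in each. Without that library they were 1.58 for Mt2 and 0.98 for Mt1 on the log2 scale, both still called, and 1.15 for Ddit4, no longer called (edgeR adjusted p = 0.0735). Their count fell to 1 without WT replicate 1 or WT replicate 2, to 2 without CgA-KO replicate 1, and to 0 without WT replicate 3 (edgeR, 5 at an unadjusted p under 0.05, and with all libraries 4 by DESeq2 and 2 by limma-voom). Sgk1, also called higher (log2 fold change 0.98, edgeR adjusted p = 0.0145), was even across the CgA-KO livers. It had 27.9, 29.3 and 26.0 CPM in CgA-KO replicates 1, 2 and 3 and 16.9, 11.7 and 13.6 CPM in WT replicates 1, 2 and 3. Tsc22d3 and Fkbp5, induced by the same hormones, were not called (log2 fold change 0.01 and 0.63, edgeR adjusted p = 0.986 and 0.112).

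Checks of the libraries bear on these values as follows. Chga had no counts in any of the 6 libraries, WT included, so it cannot check the genotype labels. The summed level of 10 hepatocyte markers ran from 67427 to 109119 CPM in WT and from 60448 to 98372 CPM in CgA-KO livers, and edgeR called 0 of them, with 1 at an unadjusted p under 0.05 and 1 called by DESeq2. Among other cell types, edgeR called 3 of 5 tested monocyte and dendritic cell markers, 1 of 2 ILC2 markers and 2 of 3 neutrophil markers. It also called 4 of 6 stellate cell markers, and all of those called were higher. For these cell types limma-voom called 3, 0, 0 and 4. Over all genes tested limma-voom called 13.1%, and edgeR called 8.60% higher and 3.84% lower. Of 6 endothelial markers 1 was higher and 1 lower, while 0 of 6 B cell markers (0 at an unadjusted p under 0.05, and 0 by DESeq2) and 0 of 5 bile duct markers (1 at an unadjusted p under 0.05, and 0 by DESeq2) were called. With scaling by library size alone the median over all genes tested went from -0.01 to 0.26 on the log2 scale, and that over the output genes from -1.70 to -1.45.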

How the data were processed

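The samples were 6 liver poly(A) RNA libraries, 3 labelled WT and 3 labelled CgA-KO. The values are the counts that the authors deposited, 1 whole-number column per library and 1 row per gene symbol, without scaling. The authors quantified reads at the transcript level with Salmon 1.4.0 against the GRCm38 transcriptome, and how transcripts became genes, and whether strand was used, is not given in the sources used here. All 6 columns were mapped to samples by name, 0 were left out, and 78 rows that repeat a symbol were kept apart.

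The counts were tested with edgeR 4.0.16 in R 4.3.3: filterByExpr (minimum count 10), TMM factors, a quasi-likelihood test with robust dispersion, and Benjamini-Hochberg adjustment over all 13867 genes tested. Standard errors (SE) were taken from the F statistic, as the log2 fold change over its square root. A floor of 3 counts was 0.0951 to 0.269 CPM, for counting error only. Lengths and positions are of GENCODE M21 (GRCm38), and promoter windows of RefSeq. Counts of replicates varied beyond sampling noise within each genotype (chi-square per degree of freedom at least 31.9), so none was counted once with another. Alternatives used DESeq2 1.42.0, limma 3.58.1 (voom), other scaling, filters and thresholds, a replicate block, and fits without 1 library. The test was checked on simulated data.

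The members and lists were chosen with earlier results of these data known. Named were the 9 members, the core clock genes, of which 1 is not reported here, up to 3 called genes per direction of each other list, and the 5 genes nearest to Dbp. Por, Sgk1, Tsc22d3, Fkbp5, Sphk2, Klrb1c and Ncr1, and the counts of Gm6614, Fam47e and Cyp2a4, were picked for mention with the results in view. Protein sequences were not used here. Figures were drawn with matplotlib 3.10.9.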

Additional observations from a re-analysis of the deposited data

How the results depend on the processing

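Tef, Bhlhe41, Usp2, Per2, Per3, Arntl, Wee1 and Coq10b kept their call and direction in all 14 alternatives, and Npas2 in the 13 that could test it. The count of output genes called was within 1.5 times the reported 7 except at an adjusted p under 0.01 (3 genes) and in fits that left out a library (3 to 8). All genes called numbered 2592 with DESeq2, 748 with hepatocyte scaling and 360 at 0.01, and 394 to 2126 with a library left out. Calls among the PAR bZIP targets, 4 as reported, were 2 with library size alone, upper-quartile factors, hepatocyte scaling or the block, 1 with at least 10 counts in every library or at 0.01, and 1 to 2 with a library left out. Calls among the glucocorticoid genes, 4 as reported, were 2 with limma-voom or hepatocyte scaling, 1 with no filter or the block, 0 at 0.01 (edgeR, 5 at an unadjusted p under 0.05, 4 by DESeq2 at 0.05), and 0 to 5 with a library left out. Calls in the core and other output lists stayed within 1.5 times. Rora turned to 0.14 with library size alone and 0.026 with hepatocyte scaling, and ran from -0.25 to 0.0040 (without WT replicate 3) with a library left out, where Nr1d1 ran from -0.043 (without CgA-KO replicate 2) to 0.41, none of them called. The cause of these changes was not tested, apart from the smaller number of livers or genes that an alternative itself brings.

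Replicate numbers are shared between the genotypes, and deviations of same-numbered livers correlated at 0.20, 0.01 and -0.07 across genes. Not every liver correlated best with its own number, so these values show no pairing by number. With 3 livers per genotype they cannot exclude a shared litter, cage or day. With the replicate block 1498 genes were called, and 6 of the 9 output genes, the call of Hlf being lost (adjusted p = 0.0813). Depth limits genes of few counts, among them Npas2 and Cyp2a4 in WT, with 3 and 6 to 9 counts per library.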
